A study of Mus musculus with 11 samples.

Results

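The MHC class II antigen presentation genes were followed in endothelial cells (ECs) of mouse bone marrow (BM). They were taken as the rows of the gene count table whose Entrez identifiers belong to 7 named genes, which are *Cd74*, *H2-Aa*, *H2-Ab1*, *H2-Eb1*, *H2-DMa*, *H2-DMb1* and *Ciita*. All 7 rows were present among 27179 rows, and all 7 passed the filter on low counts, which kept 11948 genes. CD31hi EMCNhi ECs, a capillary population marked by high CD31 and endomucin, had been sorted from wild-type BALB/c mice aged 8 to 10 weeks. Cells stained for CD45 or Ter-119, markers of blood cells, were gated out. Met libraries (n = 3) came from marrow that held RFP-labelled 4T1.2 mammary tumour cells. Non-met libraries (n = 6) came from tumour-free marrow next to it in the same burdened mice, and control libraries (n = 2) from age-matched mice with no tumour. The comparisons ask how ECs inside metastases differ from adjacent ECs and from those of healthy bone.

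Each library was made with a low-input SMART-Seq v4 protocol from 700 to 5500 cells of a pool of 1 to 4 mice. The 6 non-met libraries represent 4 burdened pools, and each met library shares its mice with 1 or 2 of them. Libraries of the same pool are therefore not separate animals, and *P* values measure the spread between these libraries. Total counts ranged from 733342 to 8771860 in burdened libraries, and were 19539761 and 5029771 in controls. A floor of 3 reads corresponded to 0.147 to 5.43 CPM (counts scaled to library size), so a low level could be missed in non-met replicate 4, the shallowest library. All 12 endothelial marker genes listed had reads in each group, with summed levels of 13271 to 15682 CPM in met, 9418 to 15648 CPM in non-met and 8091 to 11636 CPM in control. *Pecam1*, *Cdh5* and *Tie1*, 3 of the 12, were called higher in met than in non-met by voomLmFit, against 0.285% of all genes. Their log2 fold changes were 0.89, 0.56 and 0.96, the same direction as 6 of the 7 class II genes in that fit. The unweighted differences in log2 CPM were 0.69, 0.50 and 0.52, with exact permutation *P* of 0.0476, 0.0238 and 0.179. The groups overlapped for *Pecam1* and *Tie1* but not for *Cdh5*. The part of these marker differences in the class II values was not tested. In bulk samples, fewer cells of a type and less RNA per cell cannot be told apart.

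MHC class II molecules are pairs of an alpha and a beta chain that hold peptides from the endosomal pathway and show them to CD4+ T cells. Newly made chains are kept empty and guided to endosomes by the invariant chain CD74, and the DM heterodimer then exchanges the last fragment of the invariant chain for a peptide. The coactivator CIITA, which interferon-gamma induces in many cell types, switches the whole set on through X and Y boxes in their promoters. B cells, dendritic cells and macrophages make class II constitutively, whereas ECs can acquire it.

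Met libraries held more class II RNA than the other libraries, chiefly as *Cd74* and *H2-Ab1*. The summed level of the 7 genes was 311, 227 and 626 CPM in the 3 met libraries. It was 32.8 and 36.4 CPM in the controls, and in the non-met libraries its lowest, median and highest values were 3.18, 27.2 and 48.5 CPM. Every met library thus lay above every other library in this sum. Among single genes tested, 1.54% had all met libraries above all non-met libraries, and 8.43% above both controls. The 7 genes were not detected evenly. Met replicate 3 had all 7 members above 3 reads, met replicate 2 had 4 and met replicate 1 had 2. Control libraries had 4 and 1, and non-met libraries had between 0 and 3.

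**Figure D1:**
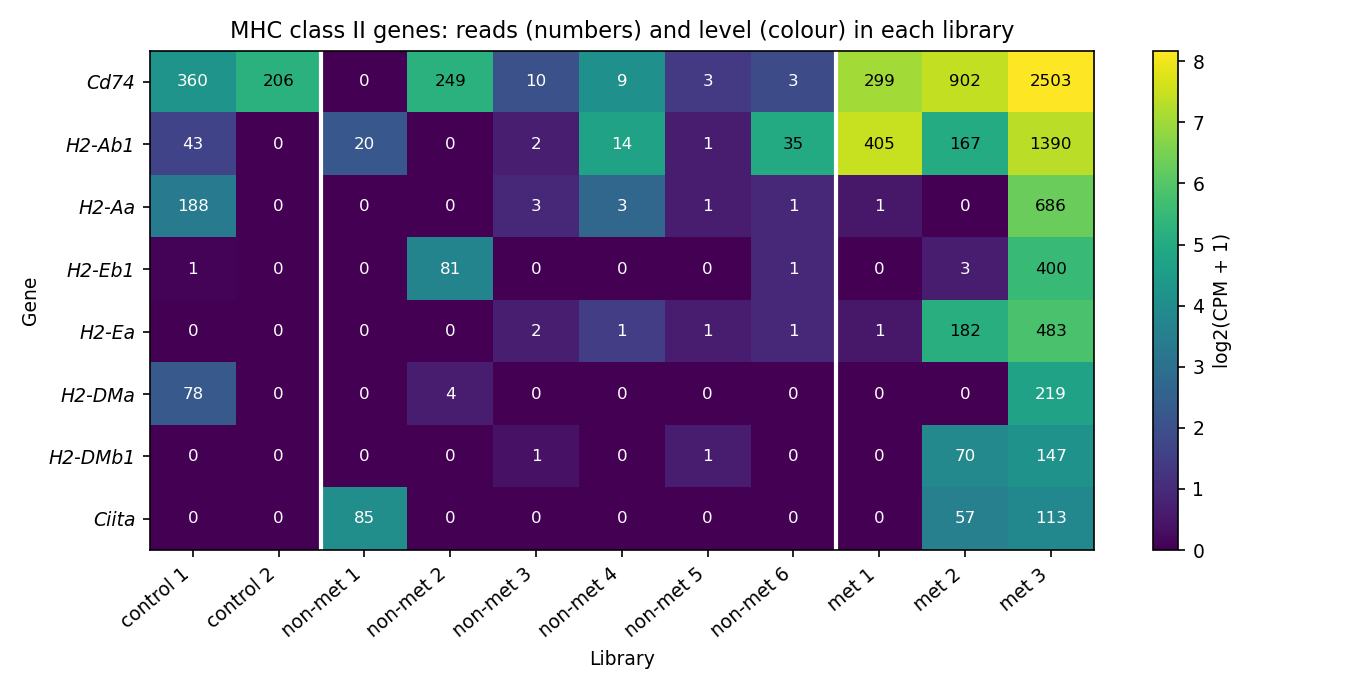
Reads (printed numbers) and level (colour, log2 of CPM plus 1) of the 7 class II genes and of *H2-Ea*, a related gene described in the text, with genes in rows and the 11 libraries in columns; white lines separate control, non-met and met. *Cd74* is highest in the 3 met libraries and *H2-Ab1* in met replicates 1 and 3, while each of the other genes is found above 3 reads in 2 or 3 libraries, met replicate 3 always among them, with 686 reads of *H2-Aa* and 400 of *H2-Eb1*.

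Between genes, levels were compared per length, as RPKM (CPM per kilobase of exon). In met libraries the order was *Cd74* at 139 ± 57.1 RPKM (SD, n = 3), *H2-Ab1* at 103 ± 66.9, *H2-Aa* at 24.7 ± 42.4, *H2-DMa* at 10.7 ± 18.6, *H2-Eb1* at 9.28 ± 15.8, *H2-DMb1* at 7.82 ± 6.92 and *Ciita* at 1.39 ± 1.22. No neighbours in this order differed by more than their combined SD (the root of the summed squares). For *H2-Aa*, *H2-DMa* and *H2-Eb1* the SD exceeded the mean, because each was above 3 reads in met replicate 3 alone of the met libraries.

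To show the sequence elements through which CIITA acts, promoters were read from RefSeq on build GRCm38.p6, the C57BL/6 reference, which is not the strain of these mice and differs from BALB/c in its class II haplotype. Entries were found for 4 of the 7 members. Short motifs were searched on both strands of the 250 bases before each start site, namely ATTGG (the Y box core), CTAGNAAC (an X box core) and TGACGTCA (a cyclic AMP response element). The first was held by 33.8% of all 32851 promoters, the second by 3.06% and the third by 1.55%, and none of the 3 overlapped another in the members' windows. Bases 110 to 31 before the start are given below for the members whose windows held ATTGG with either other motif, a pairing found in the same 80 bases of 0.31% of all promoters. Capitals mark the motifs.

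H2-Aa: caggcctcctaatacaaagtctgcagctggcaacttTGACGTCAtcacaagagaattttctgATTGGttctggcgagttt
H2-Eb1: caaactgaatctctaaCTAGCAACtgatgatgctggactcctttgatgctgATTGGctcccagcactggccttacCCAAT
H2-DMb1: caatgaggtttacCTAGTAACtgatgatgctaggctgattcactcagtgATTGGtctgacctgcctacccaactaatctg

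The *H2-Aa* stretch lies at chr17:34287854-34287933 on the minus strand, *H2-Eb1* at chr17:34305757-34305836 and *H2-DMb1* at chr17:34153081-34153160, both on the plus strand. The Y box core began 48, 59 and 61 bases before the start in that order, and the CCAAT that closes the *H2-Eb1* stretch is a further match on the opposite strand. The first of the 2 *H2-DMa* windows held none of the 3 motifs, and the second held ATTGG 198 bases before its start. The window of *H2-Ob*, a further class II gene, held the same pairing, with the Y box core 57 and the X box core 90 bases before the start. That gene had 0 reads in all 11 libraries. These are matches of letters and not tests of binding.

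*Cd74* encodes the invariant chain (Entrez 16149, chr18:60803849-60812652 on GRCm38.p6). It was present at 132, 171 and 287 CPM in the 3 met libraries, from 299, 902 and 2503 reads. The control libraries held 17.6 and 36.4 CPM, and the non-met libraries held 0, 36.1, 3.11, 16.3, 1.59 and 2.67 CPM. Every met library exceeded every non-met and control library, and the highest non-met library, replicate 2, was level with control replicate 2. Mean log2 CPM was 7.54 ± 0.57 (SD, n = 3) in met, 2.02 ± 2.36 (n = 6) in non-met and 4.68 ± 0.73 (n = 2) in control. At the lowest met level, the shallowest non-met library would have held 72.8 reads of *Cd74*, against 9 observed, and non-met replicate 5 would have held 248 against 3.

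The non-met mean of *Cd74* was 9.97 CPM and the median 2.89 CPM. Replicate 2, at 36.1 CPM, raised that mean and so lowered the ratio of met to non-met. In met against non-met libraries, *Cd74* was 19.7-fold higher by the ratio of mean CPM. Its log2 fold change was 5.62 ± 1.24 (SE), with an adjusted *P* of 0.0376 by voomLmFit. It was the only member of 7 to pass the threshold of 0.05, against a background of 0.427% of all genes called in this comparison (0.285% higher and 0.142% lower). In an exact two-sided permutation test over libraries, *P* was 0.0119, the smallest that 84 splits allow, and 1 after adjustment over all genes. DESeq2 also called it, with an adjusted *P* of 0.0402, whereas the adjusted *P* was 0.537 by the edgeR quasi-likelihood test and 0.911 by limma-trend. With the mouse pool as a block, the log2 fold change was 4.47 and the adjusted *P* was 1.00 by voomLmFit. Leaving out non-met replicate 1, 3, 5 or 6, or met replicate 2 or 3, ended the call, and adjusted *P* over all single omissions ranged from 0.0296 to 0.188 with a log2 fold change of at least 4.95.

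*H2-Ab1* encodes the beta chain of the A molecule (Entrez 14961, chr17:34263227-34269418). It was present at 178, 31.6 and 159 CPM in met, at 2.10 and 0 CPM in control, and at 3.60, 0, 0.622, 25.3, 0.530 and 31.1 CPM in non-met libraries. Met replicates 1 and 3 stood well above all others, but met replicate 2 was level with non-met replicate 6. The latter rested on 35 reads, with an exact 95% Poisson interval of 21.7 to 43.2 CPM, which holds the value of met replicate 2 and, like other such intervals, covers counting error only. *H2-Ab1* was 12.1-fold higher in met than in non-met by mean CPM. Its log2 fold change was 4.19 ± 1.49 with an adjusted *P* of 0.457 by voomLmFit, and the exact permutation *P* was 0.0238, or 1 after adjustment. It therefore did not pass the test across all genes.

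By CPM, *Cd74* and *H2-Ab1* were the 2 of 7 members whose met libraries all lay above all non-met libraries, which held for 1.54% of all genes tested, while 0.444% had all met libraries below. Under RLE scaling or plain library size, alternatives chosen after seeing the data, *H2-Ab1* no longer met this condition and *Cd74* did.

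**Figure D2:**
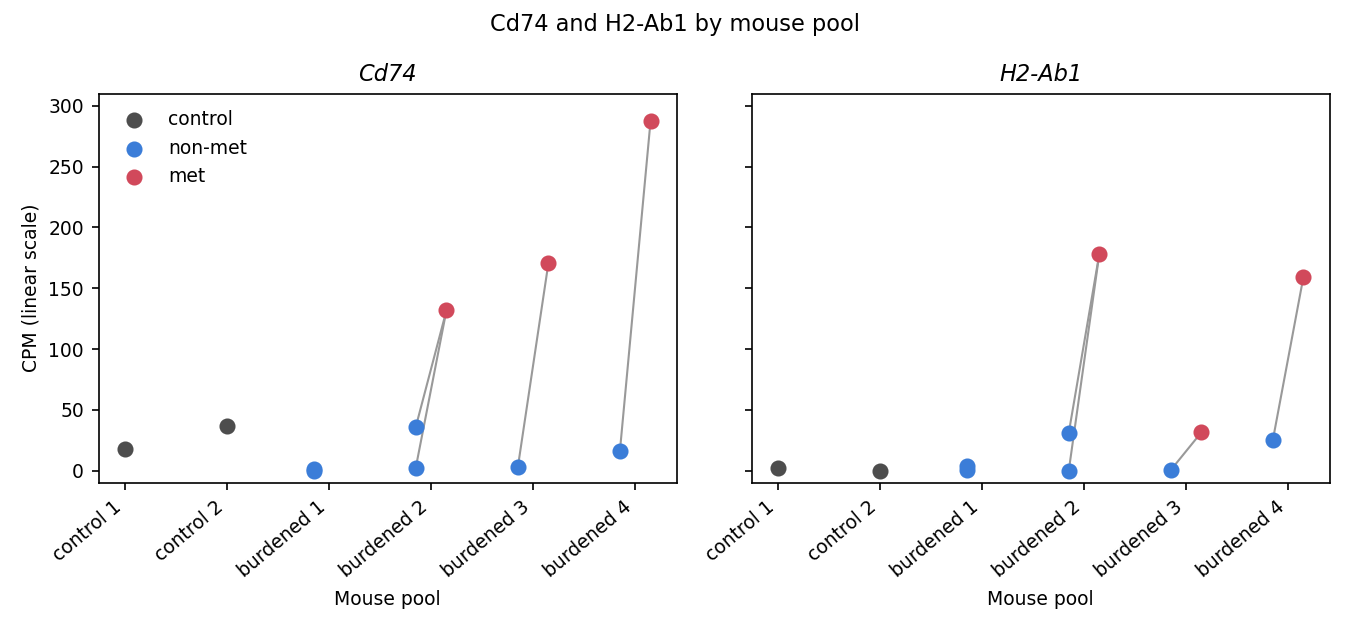
CPM on a linear scale of *Cd74* (left) and *H2-Ab1* (right) in each library, by mouse pool (control grey, non-met blue, met red), with lines joining met and non-met libraries of the same pool. All 4 lines rise towards met for each gene, and *H2-Ab1* rises least in burdened pool 3, to 31.6 CPM.

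Libraries of the same pool come from the same mice. Met exceeded non-met in 4 of 4 same-pool pairs for both *Cd74* and *H2-Ab1*, in 3 of 3 pools. This follows from the lack of overlap by CPM given above, so it is not a separate line of support. Met replicate 1 also enters more than a single pair. Differences in log2 CPM were 1.86 to 5.63 for *Cd74* and 2.51 to 8.97 for *H2-Ab1*. The smallest *Cd74* difference was in burdened pool 2, against non-met replicate 2. Of the other members, *H2-Eb1*, *H2-DMb1*, *Ciita* and *H2-Aa* were higher in met in 2 of 4 pairs each and *H2-DMa* in 1 of 4. In 1 of these pairs *H2-Aa* had 1 read against 0, and in 1 *H2-Eb1* had 3 against 0. Neither was above the floor of 3 reads.

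*H2-Aa* encodes the alpha chain that pairs with *H2-Ab1* (Entrez 14960, chr17:34282744-34287823). It had 1, 0 and 686 reads in the met libraries, or 0.441, 0 and 78.7 CPM, and 188 and 0 reads in the controls. No non-met library had more than 3 reads. Met replicate 1, which held 405 reads of the beta chain *H2-Ab1*, thus held 1 read of its alpha partner, and met replicate 2 held 167 and 0. Met was at least 13.7-fold higher than non-met, with non-met set at the group's floor of 3 reads per library, but this rests on met replicate 3. Without that library both groups were at or under the floor. The voomLmFit log2 fold change was −0.05 ± 2.36 with an adjusted *P* of 0.998, and was positive by the edgeR quasi-likelihood test, DESeq2 and limma-trend.

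*H2-Eb1*, the beta chain of the E molecule (Entrez 14969, chr17:34305867-34316674), had 0, 3 and 400 reads in met. Non-met replicate 2 held 81 reads, or 11.8 CPM, and every other non-met and control library held at most 1. The met and non-met groups overlapped, and the log2 fold change was 1.07 ± 2.19 with an adjusted *P* of 0.946 by voomLmFit. It was 2.83 by the edgeR quasi-likelihood test, 0.63 without met replicate 2 and 2.72 without met replicate 1, and none of these passed the threshold.

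*H2-Ea*, the alpha partner of *H2-Eb1*, is not a member and comes from a list of further class II genes. It is annotated as a transcribed pseudogene in the C57BL/6 reference (Entrez 100504404, chr17:34341952-34344645), where its promoter is deleted, whereas BALB/c mice carry a working E alpha gene. It had 1, 182 and 483 reads in met, at most 2 in any non-met library and 0 in both controls. Met was at least 15.6-fold higher than non-met and at least 88.9-fold higher than control, against floors of 3 reads per library. The log2 fold change against non-met was 4.12 ± 2.03 with an adjusted *P* of 0.711 by voomLmFit, and the exact permutation *P* was 0.0595. Of the others on the list, *H2-Oa* and *H2-Ob*, whose products inhibit DM, had 0 reads in all 11 libraries, and *H2-Eb2* at most 1.

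The DM genes encode the peptide exchange factor. *H2-DMa* (Entrez 14998, chr17:34119693-34139101) had 219 reads in met replicate 3, or 25.1 CPM, 78 in control replicate 1 and 4 in non-met replicate 2. It had 0 in the other 8 libraries, and its annotated span overlaps *Brd2*. *H2-DMb1* (Entrez 14999, chr17:34153191-34160229) had 0, 70 and 147 reads in met, at most 1 in each non-met library and 0 in the controls, which made met at least 5.20-fold higher than non-met and at least 29.7-fold higher than control. Reads of *H2-DMb1* are uncertain where they match its close copy *H2-DMb2*, which had 93 reads in met replicate 2 and at most 1 elsewhere. Both DM chains were above 3 reads together in met replicate 3 alone. Log2 fold changes against non-met were 0.50 ± 2.11 for *H2-DMa* and 3.24 ± 2.12 for *H2-DMb1*, with adjusted *P* of 0.978 and 0.762 by voomLmFit. By the edgeR quasi-likelihood test they were 5.87 and 5.91, with an adjusted *P* of 0.564 for both. Without met replicate 1 they were 1.38 and 5.22 by voomLmFit, with adjusted *P* of 0.890 and 0.374.

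*Ciita*, the coactivator (Entrez 12265, chr16:10480014-10531064), was found in 3 libraries. Met replicates 2 and 3 held 57 and 113 reads, or 10.8 and 13.0 CPM, and non-met replicate 1 held 85 reads, or 15.3 CPM. All other libraries, met replicate 1 included, held 0. The highest *Ciita* value was thus in a non-met library that had 0 reads of *Cd74*, *H2-Aa* and *H2-Eb1* and 20 of *H2-Ab1*. The span of *Ciita* overlaps *Dexi*, and the strand setting of the counts is not given in the sources used here. The log2 fold change against non-met was 2.69 ± 2.22 with an adjusted *P* of 0.810 by voomLmFit. It was 0.48 without met replicate 2, 0.62 without met replicate 3 and 4.58 without met replicate 1, and none of these passed the threshold.

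Over the 7 members, the median log2 fold change of met against non-met was 2.69, and it was the same with the 2 members that non-met held only at the floor set to their bounds. Across all genes tested the median was 0.08. Each member other than *Cd74* and *H2-Ab1* was above 3 reads in only 2 or 3 libraries, so few libraries held any pair. *Cd74* and *H2-Ab1* were both above 3 reads in 5 of 11 libraries, *Cd74* and *H2-Aa* in 2, and *H2-Aa* and *H2-Eb1* in 1.

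**Figure D3:**
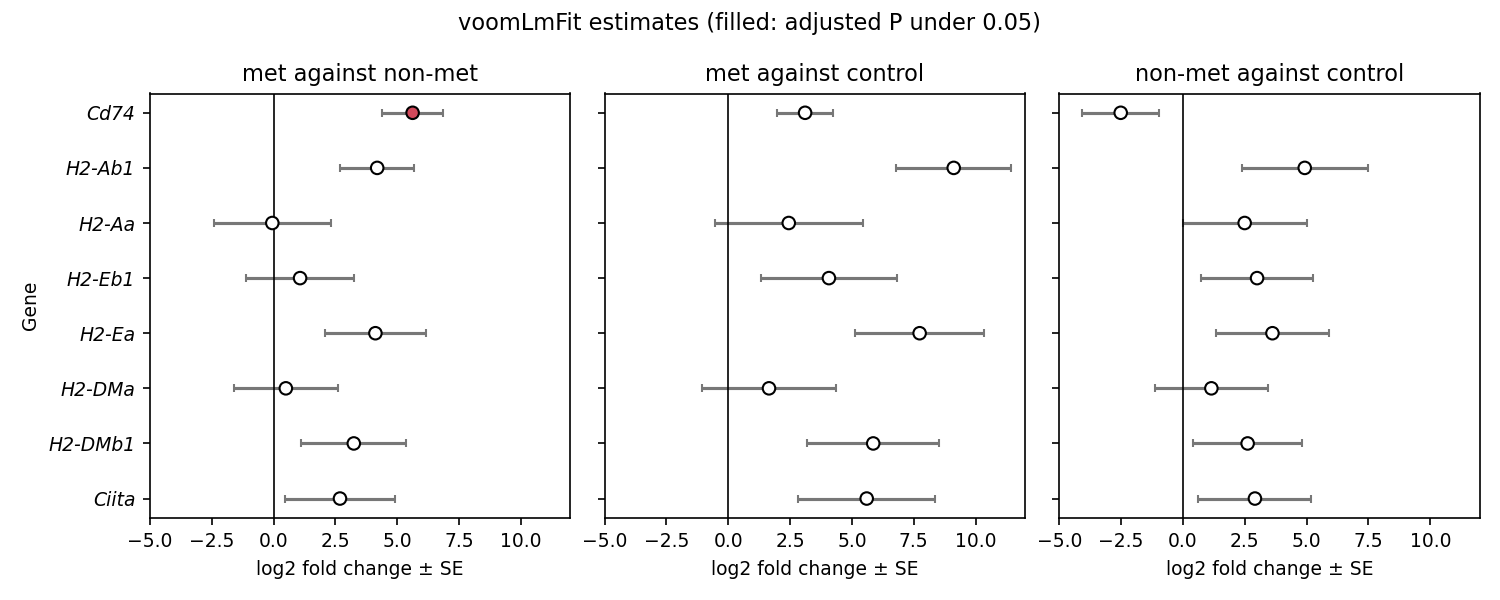
Log2 fold change with its SE (horizontal bars) of each class II gene and *H2-Ea* by voomLmFit, for met against non-met, met against control and non-met against control; a filled point has an adjusted *P* under 0.05. *Cd74* in met against non-met, at 5.62, is the filled point, and most bars span several log2 units.

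Against healthy bone, all 7 members had a higher mean CPM in met, but none passed the test by voomLmFit, with a background of 1.2% of genes called (0.686% higher and 0.511% lower). At an unadjusted *P* under 0.05, 3 members were counted by voomLmFit, as were 14.1% of all genes, and the edgeR quasi-likelihood test, DESeq2 and limma-trend called 0 after adjustment. *H2-Ab1* came closest, with a 117-fold ratio of mean CPM, a log2 fold change of 9.12 ± 2.32 and an adjusted *P* of 0.0540. Without the low-count filter its adjusted *P* was 0.00553 by voomLmFit, and without met replicate 2 it was 0.0266. Without control replicate 2, where it had 0 reads, its log2 fold change was 5.37 with an adjusted *P* of 0.524. *Cd74* was 7.28-fold higher by mean CPM, with a log2 fold change of 3.11 ± 1.14 and an adjusted *P* of 0.176.

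Both genes were higher in all 3 met libraries than in both controls, a condition met by 8.43% of all genes (12.3% lay below), and the exact permutation *P* was 0.1 for each, the smallest that 10 splits allow. *H2-Eb1*, *H2-DMb1* and *Ciita* were at or under the floor in both controls, and met was at least 45.7, 29.7 and 23.4-fold higher. Each of these bounds rests on 1 or 2 met libraries. The median log2 fold change of the members was 4.07, or 4.55 with those 3 at their bounds, against −0.09 across all genes. By the unweighted difference in log2 CPM the median was 2.86 for the members and −0.35 across all genes, and the difference was 6.69 for *H2-Ab1*.

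Non-met and control libraries did not separate in any member. None of the 7 was called by voomLmFit, against a background of 0.636% (0.184% higher and 0.452% lower). None had an unadjusted *P* under 0.05 by voomLmFit, the edgeR quasi-likelihood test or limma-trend, nor by DESeq2 where it gave a *P*. DESeq2 gave none for *H2-Aa*, *H2-Eb1* and *H2-DMa*. By voomLmFit, 17% of all genes had an unadjusted *P* under 0.05. Mean CPM was higher in non-met for 4 of the 7 members and lower for *Cd74*, *H2-Aa* and *H2-DMa*. *Cd74* was at 9.97 ± 14.1 CPM in non-met (n = 6) and 27.0 ± 13.3 CPM in control (n = 2). Its log2 fold change was −2.51 ± 1.57 with an adjusted *P* of 0.384 by voomLmFit, and the exact permutation *P* was 0.179, where 0.0357 is the smallest that 28 splits allow. *H2-Ab1* had a log2 fold change of 4.93 ± 2.54 with an adjusted *P* of 0.318 by voomLmFit, and non-met replicates 2, 3 and 5 lay below control replicate 1. No member had all non-met libraries above both controls, or below them, against 1.26% and 5.03% of all genes. The median log2 fold change of members was 2.62, or 1.89 with 3 at their bounds and *H2-DMb1*, at the floor in both groups, left out. By the unweighted difference in log2 CPM the median was 0.37. In both comparisons with control, voomLmFit adds 0.5 reads to each count, so 0 reads in a shallow burdened library score higher than 0 reads in a deep control. The met and non-met comparisons with control share both control libraries.

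The other genes of the pathway were described by list. The lysosomal enzymes that cut antigen and invariant chain were abundant, with *Ctsb* at 2701 ± 870 CPM and *Ctsl* at 1658 ± 1079 CPM in met (n = 3), and 2597 ± 987 and 1705 ± 1473 CPM in non-met (n = 6). Both were called higher in met than in non-met by voomLmFit, with log2 fold changes of 0.84 and 1.22 and adjusted *P* of 7.81e-10 and 0.0300, making 2 of 8 genes of the list, against 0.285% of all genes. The unweighted differences in log2 CPM were 0.08 and 0.06, with exact permutation *P* of 0.75 and 0.940, and the groups overlapped. Against control, 4 of 8 were called higher in met (0.686% of all genes), namely *Ctsb*, *Lgmn*, which encodes legumain, *Ctsl* and *Ctsd*, with voomLmFit log2 fold changes of 1.53, 1.52, 1.35 and 1.20. The unweighted differences were 1.21 and 1.17 for *Ctsb* and *Lgmn*, whose groups did not overlap, with an exact permutation *P* of 0.1 each. They were 0.54 and 0.85 for *Ctsl* and *Ctsd*, whose groups overlapped, with exact permutation *P* of 0.7 and 0.3. In non-met against control *Ctsb* and *Lgmn*, 2 of 8, were called higher (0.184% of all genes). *Ctss*, the protease that trims the invariant chain in professional antigen-presenting cells, had 89 and 162 reads in the controls, 0 in all 3 met libraries and at most 1 in non-met.

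Of 7 genes whose products assemble with CIITA on the promoter, none was called by voomLmFit in any comparison. Of the 7, 6 had a positive log2 fold change in met against non-met, and *Creb1*, *Nfya* and *Rfx5*, those of the highest mean level, had −0.68, 0.90 and 0.49. The largest was that of *Nfyb*, a subunit of the Y box factor NF-Y, at 4.78 ± 1.63 with an unadjusted *P* of 0.00737 and an adjusted *P* of 0.411 by voomLmFit. It was at 14.8 to 57.3 CPM in met and 0 to 64.0 CPM in non-met, so the groups overlapped. Nor was any of 7 genes of the interferon-gamma signal called by voomLmFit. *Jak1* was at 964 ± 147 CPM in met and 727 ± 246 in non-met, and the transcription factor *Irf1*, which acts on *Ciita*, was at 292 ± 25.3 and 175 ± 86.7 CPM. *Jak2* was at 288 ± 97.7 and 376 ± 144 CPM. Log2 fold changes of *Jak1*, *Irf1* and *Jak2* were 0.22, 0.61 and −0.41, with adjusted *P* of 0.789, 0.815 and 0.846.

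T cells that recognise class II also receive costimulation through ligands such as CD80 and CD86. *Cd80*, *Cd86* and *Pdcd1lg2* had 0 reads in all 11 libraries, and *Icosl* at most 1. *Icam1*, an adhesion molecule for leukocytes and the most abundant gene of this list, was at 2.20, 119 and 318 CPM in met, 46.7 to 522 CPM in non-met, and 229 to 282 CPM in control. Its log2 fold changes were −0.93 against non-met and −1.37 against control, with adjusted *P* of 0.898 and 0.644 by voomLmFit. *Cd40*, a receptor for T cell help, was at 58.6, 22.4 and 44.5 CPM in met, at 9.14 and 7.08 CPM in control, and at 16.9 and 82.6 CPM in non-met replicates 1 and 6, the last the highest of the 11 libraries, with 0 in the other 4. *Cd274*, which encodes the checkpoint ligand PD-L1, had 0, 196 and 446 reads in met, 199 in control replicate 1, and at most 6 in any non-met library. *Tnfsf4*, which encodes the costimulatory OX40 ligand, had 91, 0 and 201 reads in met, at most 1 in any non-met library, and 65 and 0 in control. None of the 4 tested genes of this list was called by voomLmFit, and *Cd40*, *Cd274* and *Tnfsf4* had log2 fold changes of 4.17, 3.87 and 2.98 against non-met with adjusted *P* of 0.592, 0.741 and 0.791. Of 7 tested genes for class II turnover and partners of CD74, *Cd9* was called higher in met against control, as were 0.686% of all genes. It had a log2 fold change of 1.97 and an adjusted *P* of 0.0437 by voomLmFit. No other was called in any comparison.

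Because B cells, dendritic cells and macrophages carry class II constitutively, markers of these and of other cell types were set beside these values. In the summed B cell list of 13 genes, met libraries held 174, 0.190 and 8.95 CPM, controls 17.0 to 30.0 CPM and non-met libraries 0 to 417 CPM. *Ms4a1* was at 0 in all 11 libraries. Met replicate 1, with the highest *H2-Ab1*, held 220 reads of *Cd79a* and 176 of *Blnk*, both B cell genes, and no other gene of that list above 3 reads. Met replicates 2 and 3 had 0 and 1 of the 13 above 3 reads.

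The summed dendritic cell list of 10 genes was 117 to 132 CPM in met, 67.6 to 221 CPM in non-met and 127 to 165 CPM in control. *Zbtb46* had the highest mean of the list, at 92.2 CPM over the 11 libraries. It made up all of the sum in met replicate 1, at 132 CPM, but 3.34 CPM of that in non-met replicate 2. *Itgax*, *Xcr1* and *Siglech* were at 0 in all 11 libraries. Met replicate 3, with the most class II RNA, held 279 reads of *Batf3*, 106 of *Flt3* and 116 of *Clec9a*, and met replicate 2 held 158 of *Flt3* and 212 of *Clec9a*. By level, *Clec9a* was at 40.2 and 13.3 CPM in met replicates 2 and 3, at 95.3 and 63.3 CPM in non-met replicates 1 and 2, and at 30.2 and 27.2 CPM in the controls. *Flt3* was at 29.9 and 12.2 CPM in the same met libraries and at 52.3 CPM in non-met replicate 3. *Batf3* went the other way, at 32.0 CPM in met replicate 3 and with at most 1 read in any other library. The monocyte and macrophage list of 14 genes was summed to 354 to 877 CPM in met, 461 to 1398 in non-met and 999 to 1604 in control, mostly *Mrc1*. *C1qa*, *C1qb*, *C1qc*, *Ccr2* and *Fcgr1* were at 0 in all 11 libraries. Met replicate 2 held 770 reads of *Mertk*, at 146 CPM the highest of the 11 libraries, and 183 of *Csf1r*, and met replicate 3 held 153 of *Cd68* and 91 of *Lyz2*. Non-met replicate 2 held 479 reads of *Csf1r*, 405 of *Cd68* and 2137 of *Lyz2*. *Ptprc*, the gene of CD45, had 0 reads in met replicates 1 and 3, in all 6 non-met libraries and in control replicate 2, with 205 in met replicate 2 and 255 in control replicate 1. At 38.9 CPM, met replicate 2 was the highest of the 11 libraries. The 6 general leukocyte genes, *Ptprc* included, summed to 131 to 292 CPM in met, 239 to 532 CPM in non-met and 65.1 to 179 CPM in control, mostly *Lcp1*.

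Non-met replicate 2, the highest non-met library for *Cd74* and *H2-Eb1*, had 8 of 13 B cell markers above 3 reads, with 1500 reads of *Ighm*, and held 431 reads of the macrophage gene *Adgre1*. Without that library *Cd74* had a log2 fold change of 5.97 and an adjusted *P* of 0.0454 by voomLmFit. Epithelial markers of the tumour summed to 11.7 to 75.2 CPM in met, 1.44 to 144 CPM in non-met and 1.03 to 19.5 CPM in control, and granulocyte genes to 47.3 to 204 CPM in met, 397 to 5170 CPM in non-met and 80.2 to 359 CPM in control. The 6 megakaryocyte and platelet genes summed to 42.6 to 123 CPM in met, 0 to 57.7 CPM in non-met and 0 to 31.3 CPM in control. Of these, *Itga2b* was at 53.5 ± 40.2 CPM in met (SD, n = 3), with all 3 at or above 29.9 CPM, and at 0 to 26.9 CPM in non-met and 0 CPM in control. Its adjusted *P* was 0.0793 against non-met and 0.0405 against control by voomLmFit. Stromal and osteolineage genes summed to 490 to 2583 CPM in met, 1150 to 3766 CPM in non-met and 4047 to 10602 CPM in control, mostly *Cxcl12*. Its log2 fold changes against control were −4.07 in met and −3.12 in non-met, both called by voomLmFit, with adjusted *P* of 2.16e-08 and 1.60e-09. Of all genes, 0.511% and 0.452% were called lower in those comparisons. The part of other cell types in the class II values was not tested.

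**Figure D4:**
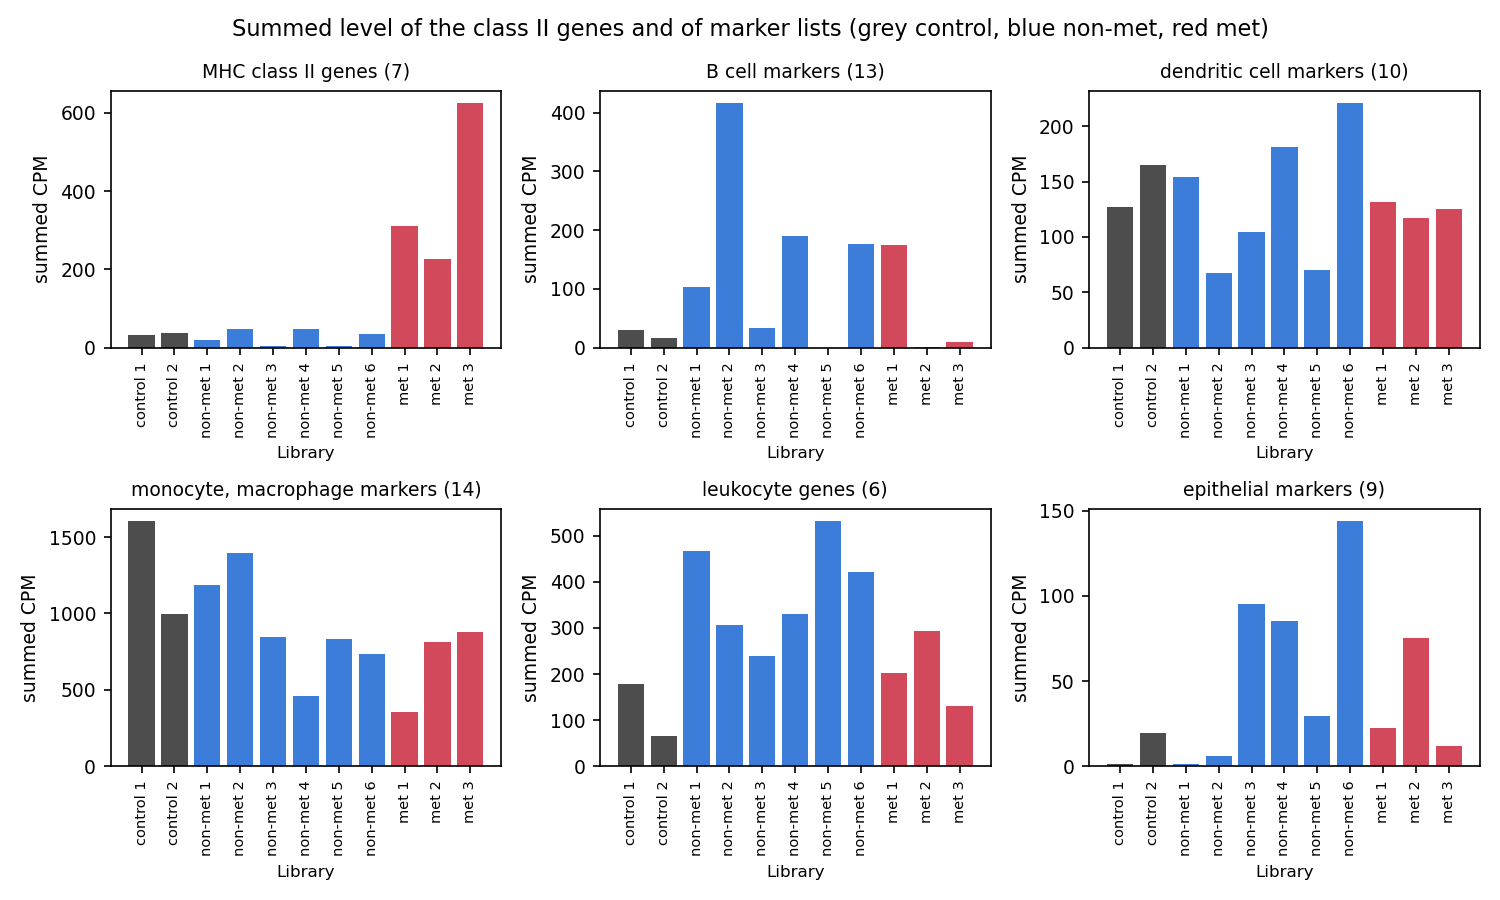
Summed CPM per library of the 7 class II genes and of 5 marker lists (control grey, non-met blue, met red), each panel on its own linear axis from 0. The class II sum is highest in the 3 met libraries, at 227 to 626 CPM, while the B cell sum is highest in non-met replicate 2 at 417 CPM and the other lists overlap between met and non-met.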

How the data were processed

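RNA-seq was made from sorted ECs in 2 control, 6 non-met and 3 met libraries. The authors aligned reads to mm10 with Rsubread, counted them per Entrez gene with featureCounts against its built-in NCBI annotation, and deposited raw counts, with summed exon lengths. Libraries were grouped by their labels.

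Of 27179 rows, 1886 unnamed, 36 ribosomal RNA and 1794 predicted-gene rows were left out, which held 1.94% to 15.7% of each library's counts. Genes were kept by filterByExpr (minimum count 10, minimum total 15), scaled by TMM and fitted with voomLmFit and sample weights over all 11 libraries in R 4.3.3 (edgeR 4.0.16, limma 3.58.1). *P* values were adjusted by Benjamini-Hochberg over 11948 genes with a threshold of 0.05. CPM are TMM-scaled, log2 CPM uses a prior count of 2, and RPKM divides CPM by exon length. Exact two-sided permutation tests used log2 CPM. The code was tested on simulated data. Total counts were 733342 to 19539761 a library, and 2 control libraries and 4 burdened pools limit the precision.

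The fit was repeated with limma-trend, with DESeq2 1.42.0 and with quasi-likelihood in edgeR, under RLE scaling, without the filter, with predicted and ribosomal rows kept, with a pool block, and with libraries omitted. Met and non-met libraries are paired by the labels, which give the same mouse pool. Spearman correlations of deviations from group means were −0.02 to 0.02 in 4 same-pool pairs and −0.05 to 0.07 in 14 other pairs.

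Named genes were all members, plus, per pathway and marker list, called genes up to 3 or otherwise up to 3 of the highest mean, and the 5 genes most like the members. In marker lists this rule was not followed throughout, and some genes were named for their value in 1 library or for having no reads. Others named (*Ctss*, *Nfyb*, *Tnfsf4*, *Cd80*, *Ctsd* and markers) were chosen after their values were seen. Members and lists were chosen with earlier results of these data known.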

Additional observations from a re-analysis of the deposited data

Results flagged for a closer look

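In the non-met group of 6 libraries, 3 values stood far from the other 5, by the gap to the nearest library relative to the group's range, among 8 such tests (the 7 members and *H2-Ea*). *H2-Eb1* in non-met replicate 2 was at 3.60 log2 CPM, with the next library at 0.32. *H2-DMa* in non-met replicate 2 was at −0.093 log2 CPM, from 4 reads, with all others at −1.49, the value of 0 reads. *Ciita* in non-met replicate 1 was at 3.97 log2 CPM, with all others at −1.49. Chance alone flags about 5% of groups in such a test, and groups in which most libraries hold 0 reads are flagged by any single library with reads.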

How the results depend on the processing

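In met against non-met, the count of members called fell from 1 to 0 by the edgeR quasi-likelihood test, limma-trend, RLE scaling, the mouse pool as a replicate block (3 members tested), and without non-met replicates 1 and 2 together. It ranged from 0 to 1 over single omissions. *Cd74* kept its direction in 19 of 19 alternatives and its call in 8. Members lying above every non-met library fell from 2 to 1 under RLE and library-size scaling. In met against control the count rose from 0 to 1 (*H2-Ab1*) without the low-count filter and was 0 to 1 over single omissions. In non-met against control it was 0 throughout. *H2-Aa* in met against non-met turned positive by the quasi-likelihood test (4.43), DESeq2 (4.18) and limma-trend (1.49), and ranged from −1.79 to 1.42 over omissions, with 0.98, 0.15, 0.60 and 1.42 without non-met replicate 4, non-met replicate 6, met replicate 1 and met replicate 2. Without control replicate 2, *H2-Aa* and *H2-DMa* were −3.14 and −3.01 in met against control, and −2.88 and −3.35 in non-met against control. Over all single omissions their highest values were 3.91 and 2.48 in the former and 3.84 and 2.11 in the latter. In that last comparison they were −1.92 and −3.75 by the quasi-likelihood test, −1.69 and −3.18 by DESeq2, and −0.87 and −1.54 by limma-trend. DESeq2 gave no *P*, adjusted or not, for 3 members (*H2-Aa*, *H2-Eb1* and *H2-DMa*) in any comparison. Over all genes, 51 were called in met against non-met, with 2 (limma-trend) to 324 (DESeq2) under alternatives, 16 to 87 over omissions and 28 under the block; 66.7% were higher, against 53.3% under RLE scaling, 18.8% by the quasi-likelihood test, 6.48% by DESeq2, 14.3% under the block and 0 of 2 by limma-trend. In non-met against control, 28.9% of called genes were higher by voomLmFit. That share was 38.6% under RLE scaling, 78.6% by the quasi-likelihood test, 98.5% by DESeq2 and 75% by limma-trend. The cause of these differences was not tested. In non-met replicate 4, 3 reads are 5.43 CPM, so lower levels could not be detected there.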

Other observations

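The genes whose levels followed the class II genes most closely were sought with the mean log2 CPM of *H2-Aa*, *H2-Ab1*, *H2-Eb1* and *Cd74* over the 11 libraries, as a description with no test. *Rapgef1*, which encodes a guanine nucleotide exchange factor for Rap1, had the highest Pearson correlation at 0.82, and was at 186 to 437 CPM in met, 44.0 to 186 in non-met and 111 to 153 in control. *Nmnat2*, *Ptprk*, *Noc4l* and *Ccdc86* followed at 0.81, 0.80, 0.80 and 0.80. Among the listed genes *H2-Ea* stood at rank 25 with 0.76, *Tnfsf4*, a costimulatory ligand of the TNF family, at rank 45 with 0.73, and *Cd274* at rank 127 with 0.68. Met replicate 3 stood at 6.83 in the mean of the 4 genes, against 3.18 for the next library, so the Pearson ranks lean on it. Spearman correlations were 0.96 for *Rapgef1*, 0.69 for *Nmnat2*, 0.61 for *Ptprk*, 0.93 for *Noc4l* and 0.79 for *Ccdc86*. They were 0.56 for *H2-Ea*, 0.81 for *Tnfsf4* and 0.63 for *Cd274*. The 11 points share libraries, depth and pools, and several of these genes are at 0 reads in most libraries.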
